A study of Rattus norvegicus with 36 samples.

Results

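The genes described here are 49 that act in mitosis, from entry through the spindle, the spindle checkpoint and the kinetochore to chromosome separation and cytokinesis. They were taken by gene symbol from a list of 50, out of 24275 genes in the deposited tables, and the remaining symbol, Ccnb2, was not analysed here. Their RNA was measured in H9C2, a rat line of cardiac myoblasts per the labels, in 33 libraries that fall into 11 groups of 3. Each culture received 25 nmol/L of a mimic, a synthetic RNA that imitates a microRNA, for a transfection of 24 h, and then spent 24 h in hypoxia or in normoxia. The mimics were a mimic control (MC), miR-125b, and 4 of its 3′ isomiRs, the lengthened Plus A and the shortened Trim A, Trim AG and Trim AGU, which differ from miR-125b only in the last bases. All 6 mimics had a group in hypoxia and in normoxia, of which Normoxia MC had no counts of single libraries in the tables used here, and a group is named by its condition and mimic, as in Hypoxia Trim AG. Hypoxic cells were in serum-free low-glucose medium and normoxic cells in fresh medium, so that oxygen, serum and glucose cannot be told apart in any comparison of hypoxia with normoxia. H9C2 is 1 established line that divides in culture, so no library comes from cardiac tissue.

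Mitosis begins when the kinase Cdk1 joins its cyclins and is released from inhibition by the Cdc25 phosphatases. Polo-like and Aurora kinases then build the spindle, kinetochores tie chromosomes to its microtubules, and the spindle checkpoint holds the anaphase-promoting complex back until every chromosome is attached. Cdc20 then turns that complex on, securin and cyclins are destroyed, separase parts the sister chromatids, and the midzone, the contractile ring and the abscission machinery split the cell. Most of these genes are transcribed together late in the cell cycle, and their RNA is low in cells that have stopped dividing.

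The mimics are shown because the isomiRs differ from miR-125b only at the 3′ end. The mature sequence of miR-125b is that of rat miR-125b-5p in RefSeq (GRCr8 chr11:29732588-29732609, plus strand), from which the isomiRs were built by the bases their names add or remove. The mimics' own sequences were not used here. Capitals mark the seed, bases 2 to 8, through which a microRNA pairs with its targets.
miR-125b: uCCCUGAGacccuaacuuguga
Plus A: uCCCUGAGacccuaacuugugaa
Trim A: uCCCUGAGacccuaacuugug
Trim AG: uCCCUGAGacccuaacuugu
Trim AGU: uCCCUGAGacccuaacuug
The names read the removed bases from the 3′ end inwards. All 5 share 1 seed, and they are 23 bases long in Plus A, 22 in miR-125b, 21 in Trim A, 20 in Trim AG and 19 in Trim AGU.

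Levels are given as CPM, in which each count is divided by its library's total and scaled, with FPKM, which also divides by gene length, wherever genes are compared with one another. Libraries held 28361216 to 42672584 counts, the highest being the 3 Hypoxia Trim AG libraries with 39940087 or more. Of 12 myoblast and muscle markers, 10 had a mean above 1 CPM and Nkx2-5 and Cdh2 did not. In hypoxia the 12 summed to 5160 to 5302 CPM in MC, 3437 to 3549 in Plus A and 3811 to 3869 in miR-125b. They summed to 3708 to 3833 CPM in Trim A, 3989 to 5193 in Trim AGU and 3257 to 3526 in Trim AG, and to 3410 to 3824 in normoxia. Of 6 fibroblast markers 5 were above 1 CPM, summed to 28388 to 29471 CPM in Hypoxia MC, 42238 to 44504 in Hypoxia miR-125b and 8884 to 18362 in Hypoxia Trim AG, and none was at 0 in all libraries. Among the muscle markers Myog, or myogenin, a transcription factor of myoblasts that leave the cell cycle to differentiate, was picked after its values were seen. Myog stood at 342 to 359 CPM in Hypoxia MC, 63.1 to 64.7 in Hypoxia miR-125b and 10.4 to 11.8 in Hypoxia Trim AG. Its highest and lowest groups in hypoxia were MC and Trim AG, and it stood at 32.4 to 63.6 CPM in normoxia. Myog does not stand for the whole muscle list, whose sum was above that of Hypoxia miR-125b in Hypoxia Trim AGU and below it in Hypoxia Trim AG. Of 5 endothelial markers only 2 were found among the genes listed, of 5 immune markers 5 and of 5 epithelial markers 4. The endothelial and immune markers found summed to at most 4.60 and 3.53 CPM in any library. The epithelial list, nearly all of it Krt8, summed to 192 to 201 CPM in Hypoxia MC, 137 to 146 in Hypoxia miR-125b, 89.5 to 106 in Hypoxia Plus A, 77.8 to 82.2 in Hypoxia Trim A, 48.5 to 57.6 in Hypoxia Trim AG, 147 to 171 in Hypoxia Trim AGU and 33.2 to 49.8 in normoxia. The part of these markers and of depth in the results was not tested. In bulk RNA, fewer dividing cells and less of each transcript per cell cannot be told apart.

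A few libraries stood apart from the others of their group. Replicate 1 of Normoxia Plus A was above the other 2 Plus A libraries for 48 of the 49 genes, and replicate 1 of Normoxia miR-125b was below the other 2 miR-125b libraries for 46 of 49. Among the libraries that remain without these 2, Plus A lay below miR-125b for 46 of 49, so that each replicate 1 resembled the other group. The labels were kept, and the comparisons that use either library are also given without them. Both libraries were picked by the levels of these same 49 genes, so fits without them describe and do not test. Hypoxia Trim AGU replicate 2 was below the lower of its fellow libraries by more than 1.5-fold for 7 genes, which were Anln, Nek2, Racgap1, Kif14, Ect2, Kif2c and Kif11, while it was the highest of the 3 for 18. It had counts for 16981 genes, against 18663 and 18455 in its fellow libraries and at least 18342 in every other library. In Hypoxia Trim A, replicate 1 had a summed fibroblast marker level of 37583 CPM against 20258 and 22746.

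**Figure D1:**
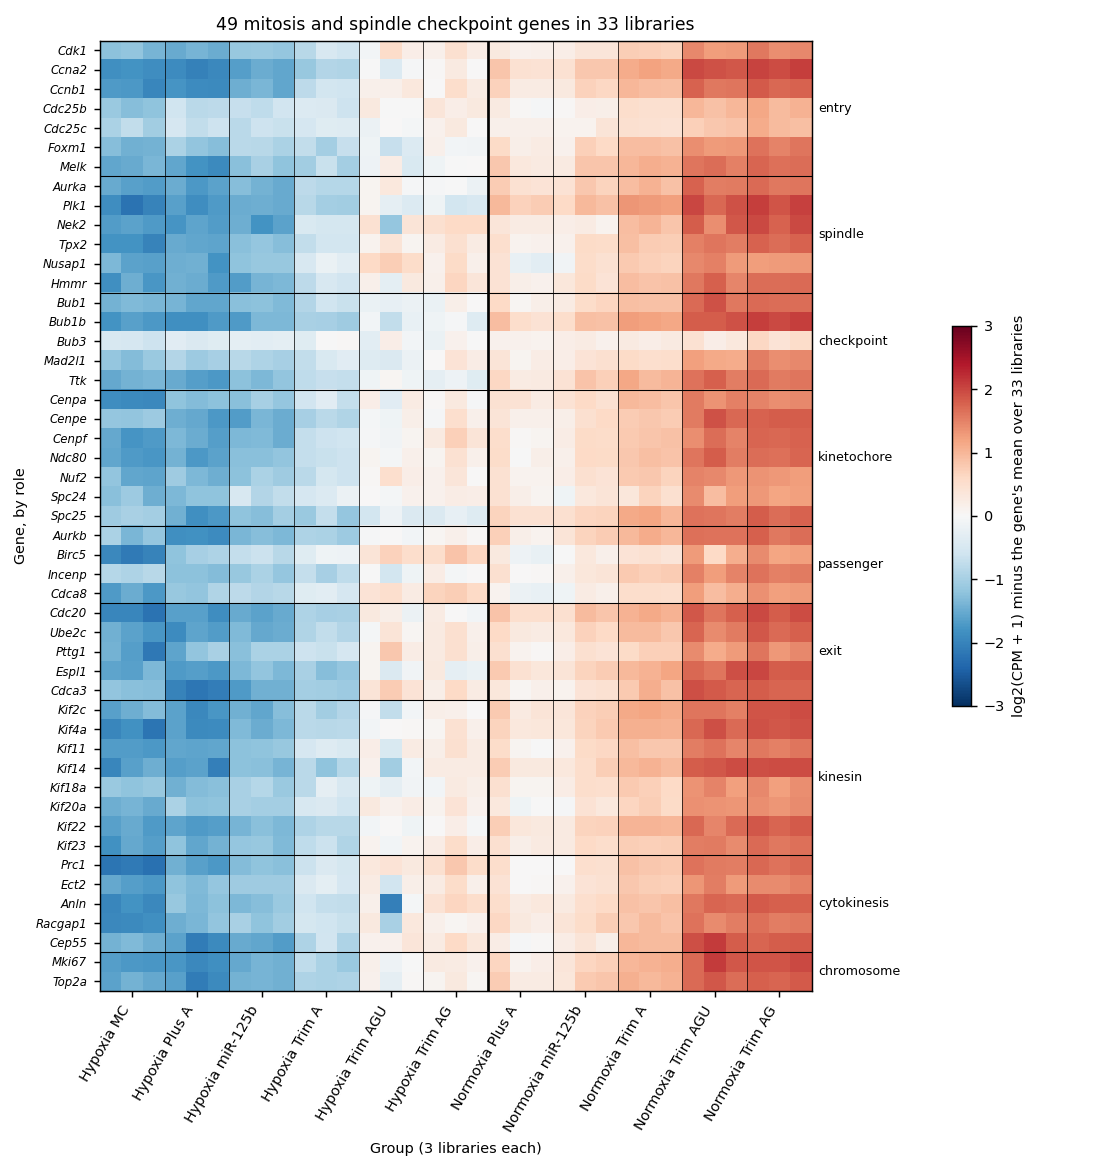
Levels of the 49 genes (rows, by role) in the 33 libraries (columns, 3 per group), as log2(CPM + 1) minus the gene's mean over all libraries. Hypoxic groups without trimmed AG or AGU are lowest, Normoxia Trim AG and Normoxia Trim AGU are highest, and Hypoxia Trim AGU replicate 2 is low for Anln, Nek2, Racgap1 and Kif14.

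The 49 genes moved largely together over the 11 groups. Their summed level in hypoxia was 743 to 783 CPM in MC, 801 to 883 in Plus A, 980 to 1011 in miR-125b, 1393 to 1481 in Trim A, 2277 to 2474 in Trim AGU and 2593 to 2998 in Trim AG. No 2 neighbours in this order overlapped. In normoxia the sum was 2604 to 3393 CPM in Plus A, 2723 to 3442 in miR-125b, 4170 to 4246 in Trim A, 6719 to 6896 in Trim AGU and 7065 to 7527 in Trim AG, and of these neighbours only Plus A and miR-125b overlapped. The group with the highest mean was Trim AG for 41 genes and Trim AGU for 8, in hypoxia and again in normoxia. In hypoxia these 8 were Aurka, Plk1, Nusap1, Ttk, Nuf2, Cdc20, Pttg1 and Cdca3, and in normoxia Aurka, Nusap1, Bub1, Ttk, Cenpa, Nuf2, Cdca3 and Cep55. The lowest hypoxic mean was that of MC for 25 genes and that of Plus A for 24.

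**Figure D2:**
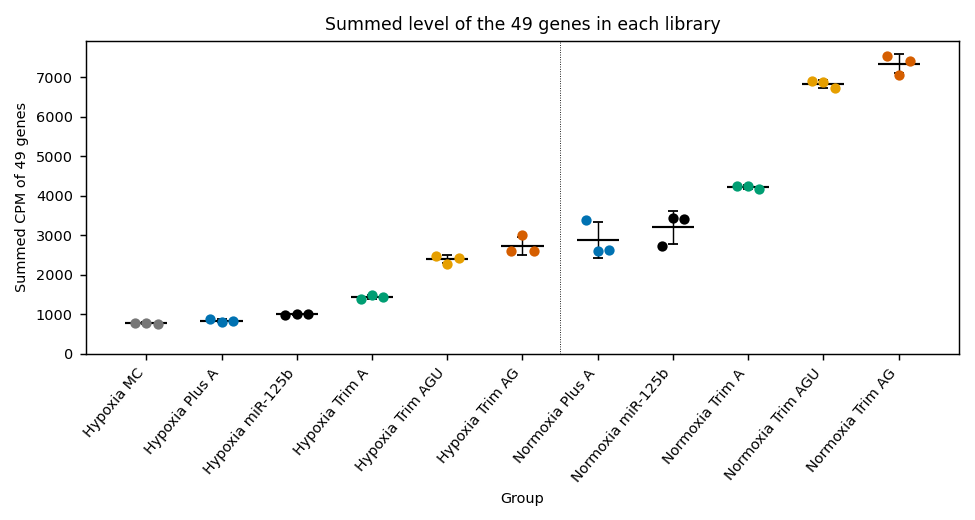
Summed CPM of the 49 genes in each library (points), with the mean and SD of each group of 3 libraries. In hypoxia the groups rise from MC to Trim AG without overlap, and all normoxic libraries but those of Plus A and miR-125b lie above every hypoxic library.

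Per length, the most abundant of the 49 over all 33 libraries was Cdk1 with a mean of 71.4 FPKM, followed by Prc1 with 65.3, Ccnb1 with 54.4 and Birc5 with 48.9. The least abundant were Kif14 with 3.60 FPKM and Kif18a with 4.47, both kinesin motors. The spread between the 3 libraries of a group, as a coefficient of variation, had a median over the genes of 3.26% in Normoxia Trim A to 15.9% in Normoxia Plus A. It reached 61.2% for 1 gene in Hypoxia Trim AGU.

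Below, a gene is called when its adjusted p in edgeR's quasi-likelihood test over all genes is below 0.05 and it differs by at least 1.5-fold, and called genes are said to have risen or fallen. The first question was how miR-125b changed these genes in hypoxia. Against Hypoxia MC it raised 13 of the 49 and lowered 0, where 9.43% of all 15143 genes tested were called higher. The largest rise was that of Birc5, or survivin, a subunit of the chromosomal passenger complex, from 8.53, 7.42 and 8.07 CPM in MC to 21.1, 22.2 and 19.4 in miR-125b (log2 fold change 1.42, SE 0.09, adjusted p = 1.5e-07). Next came Prc1 at 0.99 (SE 0.05, adjusted p = 4.7e-08) and Racgap1 at 0.96 (SE 0.11, adjusted p = 2.3e-05), both of the spindle midzone. With Anln at 0.70 and Ect2 at 0.64, 4 of the 5 cytokinesis genes rose, and the fifth, Cep55, had -0.16 (adjusted p = 0.27). The other called genes were Cdca8, Cenpa, Pttg1, Spc24, Kif4a, Tpx2, Plk1 and Foxm1, at 0.59 to 0.88. The checkpoint genes and the chromosome genes Mki67 and Top2a had no call.

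Over the 49 genes the median log2 fold change was 0.34, beside 0.00 over all genes tested, with 33 of the 49 whose libraries did not overlap in the higher direction, where 29.6% of all genes did not, and 4 in the lower, where 35.5% did not. DESeq2 with its own size factors called 12. The call of Foxm1 was lost without Hypoxia MC replicate 2 or 3 or Hypoxia miR-125b replicate 1 or 2, at 0.55 to 0.56. Those of Plk1 (0.50, without MC replicate 2), Kif4a (0.58, without MC replicate 3) and Spc24 (0.56 to 0.58, without MC replicate 3 or miR-125b replicate 1) were also lost.

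Plus A, which is miR-125b with an added A, gave calls in both directions. Against Hypoxia MC, 6 rose and 3 fell, where 10.5% of all genes were called higher and 14.4% lower, and the median of the 49 was 0.03. The 6 are a share near that of all genes, and the 3 a smaller one. Those that rose were Birc5, Cenpa, Anln, Racgap1, Prc1 and Cdca8. Birc5 went from 8.53, 7.42 and 8.07 CPM in MC to 14.8, 17.3 and 18 in Plus A (log2 fold change 1.08, SE 0.10, adjusted p = 1.2e-05). Those that fell were Cdca3, Aurkb and Spc25. Cdca3, a ubiquitin ligase adaptor that is itself a substrate of the anaphase-promoting complex, went from 11.5, 11 and 10.8 to 6.15, 5.33 and 5.76 CPM (log2 fold change -0.93, SE 0.11, adjusted p = 5.4e-05). Aurkb, the kinase of the passenger complex, went from 13.7, 10 and 11.8 to 6.98, 7.05 and 6.66 (log2 fold change -0.76, SE 0.13, adjusted p = 0.00058). Spc25, a subunit of the kinetochore's microtubule-binding Ndc80 complex, went from 8.26, 8.87 and 8.68 to 6.15, 4.45 and 4.95 (log2 fold change -0.71, SE 0.14, adjusted p = 0.0019). Within the passenger complex, then, Birc5 and Cdca8 (borealin) rose, Aurkb fell, and Incenp had -0.37 (adjusted p = 0.00042). None of the Plus A libraries overlapped the MC libraries for any of these called genes, which were chosen on the same libraries, so this adds no support. Of all 49, the libraries did not overlap for 15 in the higher direction and 11 in the lower. That held for 4498 and 5107 of all 15159 genes tested, a share near that of the 49 in the higher direction and a larger one in the lower. The calls of Cdca8 (without MC replicate 1 or 3 or Plus A replicate 3, at 0.53 to 0.58), Prc1 (without Plus A replicate 1, at 0.54) and Racgap1 (without Plus A replicate 3, at 0.57) were lost.

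Compared directly with Hypoxia miR-125b, Plus A lowered 5 of the 49 and raised 0, where 1.32% of all genes were called lower. They were Melk, from 4.98, 6.32 and 5.17 CPM in miR-125b to 3.88, 3.1 and 2.81 in Plus A, at -0.77 (SE 0.17, adjusted p = 0.016), Spc24 at -0.67, Cdca3 at -0.65, Aurkb at -0.60 and Spc25 at -0.60. The median of the 49 was -0.34, 48 of the 49 had a value below 0, and for 31 every Plus A library was below every miR-125b library, as for 16.0% of all genes. The count was 3 without Plus A replicate 2 or 3 or without miR-125b replicate 1, and 2 without miR-125b replicate 2. The call of Spc25 was lost in 5 of the 6 fits that left out 1 library, at -0.66 to -0.50.

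Trim A, which lacks the last base, raised 41 of the 49 and lowered 0 against Hypoxia MC, where 12.4% of all genes were called higher, and the median was 0.89. The largest rises were those of Birc5 at 1.98 (SE 0.11, adjusted p = 8.3e-06) and Prc1 at 1.73 (SE 0.08, adjusted p = 4.6e-06). The 8 without a call were Spc25, Incenp, Aurkb, Cdca3, Cenpe, Espl1, Bub3 and Cdc25c, at 0.09 to 0.58. The calls of Cep55 and Melk (without Trim A replicate 2), Foxm1 (without Trim A replicate 3) and Kif2c (without MC replicate 1) were lost at 0.58.

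Against Hypoxia miR-125b, Trim A raised 20 and lowered 0, where 0.457% of all genes were called higher, and the median was 0.54. Nek2, a centrosome kinase, went from 6.02, 4.58 and 5.36 CPM in miR-125b to 13.1, 12.6 and 12.6 in Trim A (log2 fold change 1.27, SE 0.13, adjusted p = 0.0082). Hmmr and Cep55 followed at 0.92 and 0.88, and 5 of the 6 spindle genes were called. For 41 of the 49 every Trim A library was above every miR-125b library, where that held for 14.1% of all genes, but the count of calls depended on single libraries. It was 1 without miR-125b replicate 1, 0 without miR-125b replicate 2 or 3, 7 without Trim A replicate 2 and 4 without Trim A replicate 3.

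Trim AG, which lacks the last 2 bases, raised all 49 genes against Hypoxia MC, where 17.0% of all genes were called higher, and the median was 1.77. Prc1, which bundles the midzone microtubules, went from 29.8, 31.3 and 28.9 CPM in MC to 196, 247 and 204 in Trim AG (log2 fold change 2.91, SE 0.11, adjusted p = 5.4e-07). Bub3 had the smallest rise at 0.59 (SE 0.10, adjusted p = 0.0011), and its call was lost without MC replicate 3 (0.53) or Trim AG replicate 2 (0.50). Every Trim AG library was above every MC library for each of the 49 and for 30.1% of all genes. Against Hypoxia miR-125b, Trim AG raised 48 and lowered 0, where 7.85% of all genes were called higher, and the median was 1.49. Nek2 led, from 6.02, 4.58 and 5.36 CPM to 26.2, 28.4 and 28.6, with 2.40 (SE 0.12, adjusted p = 1.4e-05), and only Bub3 had no call, at 0.30 (SE 0.09, adjusted p = 0.032).

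Trim AGU, which lacks the last 3 bases, also raised all 49 genes against Hypoxia MC, where 11.4% of all genes were called higher, with a median of 1.83 and the largest rise again in Birc5 at 2.84 (SE 0.17, adjusted p = 0.00042). Against Hypoxia miR-125b, 43 rose and 0 fell, where 1.83% of all genes were called higher, with a median of 1.40. Cdca3 had the largest rise at 2.29 (SE 0.20, adjusted p = 0.0039), from 7.84, 9.45 and 9.46 CPM to 36.5, 47.9 and 36.8. Cep55 followed at 2.05 (SE 0.14, adjusted p = 0.0021). The 6 without a call were Bub3, Foxm1, Anln, Racgap1, Kif14 and Nek2.

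Several of the missing calls turned on Hypoxia Trim AGU replicate 2. Anln, or anillin, a scaffold of the contractile ring, stood at 104, 21.7 and 89.5 CPM in the 3 Trim AGU libraries, the second of which was below every MC library. Nek2 stood at 25.9, 7.72 and 24.6, Racgap1 at 31.7, 12.5 and 32 and Kif14 at 13.3, 5.33 and 11.3. In that library these 4 genes were low while Cdk1, with 76.2, 119 and 93.3, and Pttg1, with 16.4, 27.6 and 18.2, were at their highest of the 3. Replicate 2 was singled out by the levels of these same genes, so a fit without it describes and does not test. Without replicate 2, 48 of the 49 were called against miR-125b, and the share of all genes in that fit is not given here. Anln then had 1.35 (SE 0.09, adjusted p = 0.00019) in place of 0.94 (SE 0.47, adjusted p = 0.26), and Nek2 had 2.28 (SE 0.13, adjusted p = 9.5e-05) in place of 1.93 (SE 0.41, adjusted p = 0.052). Racgap1 had 1.48 (SE 0.10, adjusted p = 0.00018), Kif14 1.54 (SE 0.14, adjusted p = 0.00054) and Foxm1 0.66 (SE 0.10, adjusted p = 0.0058). The count was 25 without Trim AGU replicate 3, and 12, 15 and 13 without miR-125b replicates 1, 2 and 3. Replicate 2 also had the highest summed myoblast markers of its group, 5193 CPM against 3989 and 4067, and the lowest summed fibroblast markers, 14414 CPM against 18545 and 27900. Against MC, the call of Anln was lost in each of the 5 fits that left out another library, at 1.31 to 1.70. The calls of Bub3 (all libraries but Trim AGU replicate 1, at 0.43 to 0.71), Nek2 and Spc25 (any MC library, at 1.98 to 2.04 and 0.85 to 0.90) and Kif14 (MC replicate 1, at 1.63) were lost as well.

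**Figure D3:**
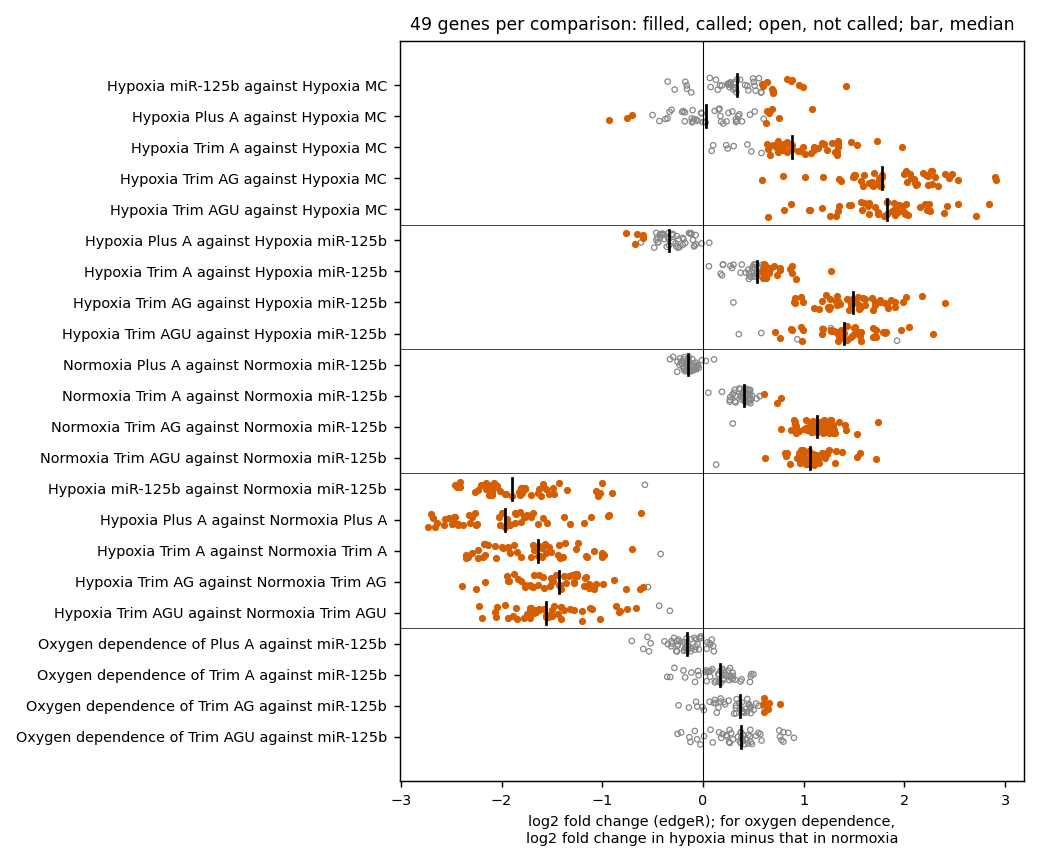
Log2 fold changes of the 49 genes (points) in each comparison, filled where called and open where not, with the median as a bar. Medians in hypoxia run from 0.03 for Plus A to 1.83 for Trim AGU against MC, all values of hypoxia against normoxia are below 0, and 8 genes are called in the oxygen dependence of Trim AG.

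All 7 genes of mitotic entry rose with Trim AG against miR-125b in hypoxia, and 6 of them with Trim AGU. Cdk1, the kinase that drives entry, stood in hypoxia at 33.7, 35 and 29.9 CPM in MC, 27.6, 29.8 and 28.2 in Plus A, 35.8, 36.6 and 35.6 in miR-125b, 44.8, 57.3 and 52.5 in Trim A, 76.2, 119 and 93.3 in Trim AGU and 89.8, 113 and 94.1 in Trim AG. In normoxia Cdk1 had 99.4, 88.4 and 89.7 CPM in Plus A, 92.7, 104 and 104 in miR-125b, 135, 132 and 128 in Trim A, 221, 194 and 196 in Trim AGU and 244, 215 and 219 in Trim AG. Only Trim AGU and Trim AG overlapped among neighbours in hypoxia, and in normoxia these and Plus A with miR-125b. Against miR-125b Cdk1 had 1.48 (SE 0.10, adjusted p = 3.6e-05) with Trim AG and 1.53 (SE 0.21, adjusted p = 0.015) with Trim AGU in hypoxia. Ccnb1, its B-type cyclin, was at 18.6, 18.1 and 15.4 CPM in MC, 17.5, 16.1 and 15.8 in Plus A, 21.8, 23.4 and 20.5 in miR-125b, 35.7, 42.5 and 40.6 in Trim A, 69.9, 69.8 and 77.5 in Trim AGU and 62.8, 90.2 and 73.7 in Trim AG. Plus A overlapped MC, and Trim AGU overlapped Trim AG. Foxm1, a transcription factor of late cell cycle genes, was at 13.1, 11.6 and 11.8 CPM in MC, 16.7, 14.1 and 13.1 in Plus A, 18.5, 18.3 and 16.6 in miR-125b, 19.6, 15.7 and 20.1 in Trim A, 30, 20.3 and 24.8 in Trim AGU and 37, 31.4 and 30.5 in Trim AG. Its MC, Plus A, miR-125b and Trim A libraries overlapped from neighbour to neighbour, while Trim AGU and Trim AG stood clear above them. Against miR-125b Foxm1 rose with Trim AG at 0.91 (SE 0.09, adjusted p = 0.00021) and had 0.06 (SE 0.11, adjusted p = 0.77) with Trim A. The others of this class were Ccna2, the Cdc25b and Cdc25c phosphatases and the kinase Melk, at 0.91 to 1.76 with Trim AG against miR-125b.

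Spindle assembly genes gave 5 of the 20 calls of Trim A against miR-125b. Aurka, which matures centrosomes, was at 9.19, 8.33 and 8.13 CPM in MC, 9.29, 7.82 and 8.48 in Plus A, 11, 9.87 and 9.17 in miR-125b, 15.9, 15.1 and 15 in Trim A, 29.5, 35 and 27.3 in Trim AGU and 27.4, 27.7 and 24.8 in Trim AG. Plk1, the polo-like kinase, was at 18.2, 13.9 and 16.3 CPM in MC, 21.6, 18 and 20.3 in Plus A, 23.8, 24.1 and 23.5 in miR-125b, 38.2, 33 and 32.7 in Trim A, 72.7, 56.7 and 51.5 in Trim AGU and 62.4, 46.4 and 48.4 in Trim AG. For Plk1 only MC with Plus A and Trim AG with Trim AGU overlapped, while for Aurka the MC, Plus A and miR-125b libraries were not separated. Plk1 against miR-125b was 0.54 (SE 0.08, adjusted p = 0.021) with Trim A, 1.15 (SE 0.11, adjusted p = 0.00015) with Trim AG and 1.43 (SE 0.14, adjusted p = 0.0059) with Trim AGU. Normoxic Plk1 was 136, 111 and 116 CPM in Plus A, 104, 136 and 127 in miR-125b, 174, 166 and 163 in Trim A, 277, 228 and 261 in Trim AGU and 291, 254 and 286 in Trim AG. Its fall in hypoxia with Trim AG, -2.40 (SE 0.12, adjusted p = 1.4e-06), was the largest of the 49 in that comparison. Nek2, Tpx2 (an activator of Aurka), Nusap1 and Hmmr, which bind spindle microtubules or centrosomes, all rose with Trim AG against miR-125b, at 1.54 to 2.40 on the log2 scale.

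The checkpoint class held Bub3, the gene with the smallest rise against MC with Trim AG and with Trim AGU. Bub3, the adaptor that brings Bub1 and Bub1b to kinetochores, was at 70.5, 69 and 63.1 CPM in MC, 77.9, 72.5 and 75.6 in Plus A, 79.7, 79.2 and 80.2 in miR-125b, 76.6, 96.5 and 100 in Trim A, 78.1, 113 and 93.3 in Trim AGU and 86, 107 and 97.8 in Trim AG. From miR-125b upwards its hypoxic groups overlapped from neighbour to neighbour, and in normoxia all neighbours overlapped, between 105 and 151 CPM. Bub1b, or BubR1, an inhibitor of Cdc20, was at 9.39, 10.6 and 9.92 CPM in MC, 8.99, 8.97 and 10.1 in Plus A, 10, 13.1 and 13.1 in miR-125b, 17.4, 17.1 and 16 in Trim A, 33, 20.5 and 29.5 in Trim AGU and 31.6, 34 and 26.5 in Trim AG. Bub1b against miR-125b rose with Trim AG at 1.36 (SE 0.14, adjusted p = 0.00019), and no library of Trim AG or Trim AGU overlapped one of miR-125b. Mad2l1, the Mad2 protein of the checkpoint complex, was at 11.1, 9.94 and 11.5 CPM in MC, 13.8, 11.8 and 12.5 in Plus A, 14.2, 13.3 and 12.5 in miR-125b, 15.2, 18.8 and 20.4 in Trim A, 19.7, 19 and 23 in Trim AGU and 26.4, 35 and 30.8 in Trim AG. Its Trim AGU libraries overlapped those of Trim A and lay below those of Trim AG. Bub1 and Ttk, the kinase that starts the checkpoint signal, rose with Trim AG at 1.34 and 1.10.

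Kinetochore genes did not share 1 order of the low groups. Cenpe, a kinetochore motor, was at 16.4, 16.1 and 17.3 CPM in MC, 13.1, 12.4 and 10.8 in Plus A, 11.2, 14 and 12.9 in miR-125b, 18.5, 21.2 and 19.9 in Trim A, 36.7, 34.7 and 43.3 in Trim AGU and 37.2, 54.2 and 42.5 in Trim AG. Its MC libraries lay above all Plus A and miR-125b libraries and below all Trim A libraries. Ndc80, which grips the microtubule end, was at 13.6, 12.1 and 11.8 CPM in MC, 15.1, 11.9 and 13 in Plus A, 17, 16.9 and 17.9 in miR-125b, 25.1, 26 and 27.1 in Trim A, 44.4, 40 and 46.6 in Trim AGU and 44.5, 58.1 and 46.6 in Trim AG. Here MC and Plus A overlapped and miR-125b stood above both. Spc25, its partner, was at 8.26, 8.87 and 8.68 CPM in MC, 6.15, 4.45 and 4.95 in Plus A, 7.49, 7.1 and 8.62 in miR-125b, 7.98, 10.8 and 7.71 in Trim A, 12.4, 16.6 and 13.5 in Trim AGU and 13.5, 15.4 and 13.9 in Trim AG. MC overlapped miR-125b and Trim A, and Plus A was lowest. Against MC, miR-125b gave -0.35 (SE 0.09, adjusted p = 0.0058) for Cenpe, 0.50 (SE 0.08, adjusted p = 0.00027) for Ndc80 and -0.12 (SE 0.12, adjusted p = 0.41) for Spc25, none of them called. Cenpa, the histone of centromeres, had 0.87, and Cenpf, Nuf2 and Spc24 had 0.32, 0.42 and 0.70, of which Cenpa and Spc24 were called. With Trim AG all 7 rose against MC, at 0.79 for Spc25 to 2.24 for Cenpf.

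In the chromosomal passenger complex the hypoxic order differed between subunits. Birc5 was at 8.53, 7.42 and 8.07 CPM in MC, 14.8, 17.3 and 18 in Plus A, 21.1, 22.2 and 19.4 in miR-125b, 27.3, 32.3 and 31.9 in Trim A, 46.2, 57.8 and 51.1 in Trim AGU and 51, 65.1 and 55.7 in Trim AG. Every neighbour up to Trim AGU was separated. Aurkb was at 13.7, 10 and 11.8 CPM in MC, 6.98, 7.05 and 6.66 in Plus A, 10, 10.7 and 10.3 in miR-125b, 14.1, 13.8 and 12.5 in Trim A, 26.8, 27.6 and 26 in Trim AGU and 28.7, 30.7 and 28.4 in Trim AG. MC overlapped miR-125b and Trim A. Thus Birc5 rose with all 5 mimics against MC, while Aurkb fell with Plus A, had -0.16 (SE 0.12, adjusted p = 0.26) with miR-125b and 0.23 (SE 0.13, adjusted p = 0.17) with Trim A, and rose with Trim AG and Trim AGU. Incenp, the scaffold, had -0.18 (SE 0.07, adjusted p = 0.038) with miR-125b and rose with Trim AG at 1.01 (SE 0.08, adjusted p = 1.8e-05). Cdca8 rose with all 5, at 0.62 with Plus A to 2.44 with Trim AG.

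Among genes of anaphase and mitotic exit, Cdc20, the activator of the anaphase-promoting complex, was at 10.8, 10.8 and 8.96 CPM in MC, 13.8, 13.8 and 11.7 in Plus A, 15.1, 14.2 and 15.1 in miR-125b, 23.1, 22 and 22.3 in Trim A, 55, 50.6 and 39.5 in Trim AGU and 53.4, 45 and 42.4 in Trim AG. Every neighbour up to the trimmed AG and AGU groups was separated. Cdca3 was at 11.5, 11 and 10.8 CPM in MC, 6.15, 5.33 and 5.76 in Plus A, 7.84, 9.45 and 9.46 in miR-125b, 13, 12.8 and 12.5 in Trim A, 36.5, 47.9 and 36.8 in Trim AGU and 31.1, 42.5 and 33.2 in Trim AG. Here MC lay above Plus A and miR-125b, and Trim A was the first group above it. Against miR-125b Cdca3 had 2.02 (SE 0.15, adjusted p = 4.3e-05) with Trim AG. Ube2c, the ubiquitin-conjugating enzyme of the complex, rose with Trim AG at 1.87 (SE 0.12, adjusted p = 2.6e-05). Pttg1 (securin) and Espl1 (separase), inhibitor and protease, rose with Trim AG at 1.49 and 1.32.

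Of 8 kinesins, all rose with Trim AG against miR-125b. Kif11, the motor that pushes spindle poles apart, was at 20.5, 20.3 and 19.9 CPM in MC, 22.3, 22 and 22.3 in Plus A, 28.4, 28.5 and 30 in miR-125b, 47, 51.6 and 48.8 in Trim A, 78.3, 49.1 and 80.9 in Trim AGU and 76.9, 94.7 and 80.2 in Trim AG. Replicate 2 of Trim AGU lay within the Trim A libraries. Kif20a, a motor of cytokinesis, was at 33.2, 35.1 and 32.4 CPM in MC, 48.1, 39.1 and 40.1 in Plus A, 47.3, 45.7 and 45.6 in miR-125b, 66.9, 68.8 and 61.6 in Trim A, 114, 102 and 109 in Trim AGU and 101, 124 and 103 in Trim AG. Plus A and miR-125b overlapped, and so did Trim AGU and Trim AG. With Trim A against miR-125b, Kif11 rose at 0.77 (SE 0.07, adjusted p = 0.0059), and Kif20a had 0.52 (SE 0.07, adjusted p = 0.02). Kif2c, Kif4a, Kif14, Kif18a, Kif22 and Kif23 rose with Trim AG at 1.25 to 1.76.

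For cytokinesis, Anln was at 23.4, 26.4 and 23.8 CPM in MC, 41.8, 35.8 and 39.2 in Plus A, 35.9, 38.2 and 42.4 in miR-125b, 61, 56.8 and 55.8 in Trim A, 104, 21.7 and 89.5 in Trim AGU and 127, 147 and 134 in Trim AG. Except for Trim AGU replicate 2, its trimmed AG and AGU libraries lay above all others. Cep55, which recruits the abscission machinery, was at 6.61, 7.09 and 6.38 CPM in MC, 5.71, 3.78 and 4.46 in Plus A, 6.15, 5.97 and 5.39 in miR-125b, 9.75, 12.7 and 9.74 in Trim A, 21.3, 21.3 and 25.2 in Trim AGU and 23.2, 30 and 25 in Trim AG. Its MC libraries lay above Plus A and miR-125b. With Trim AG against miR-125b, Cep55 rose at 2.18 (SE 0.13, adjusted p = 2.2e-05) and Anln at 1.83 (SE 0.10, adjusted p = 1.7e-05). Among markers carried by dividing chromosomes, Mki67, the Ki-67 protein, was at 41.7, 39.1 and 38.5 CPM in MC, 39, 34.1 and 36.2 in Plus A, 44.7, 50.1 and 48.2 in miR-125b, 77.6, 67.9 and 60.8 in Trim A, 148, 120 and 131 in Trim AGU and 160, 158 and 144 in Trim AG. Top2a, the topoisomerase that untangles chromosomes, was at 33.6, 38.3 and 35.3 CPM in MC, 32.7, 23.3 and 26.6 in Plus A, 38, 38.5 and 37.6 in miR-125b, 53.8, 53.2 and 54.1 in Trim A, 113, 86 and 106 in Trim AGU and 109, 128 and 108 in Trim AG. Both were separated from miR-125b to Trim A and from Trim A to Trim AGU. With Trim AG against miR-125b they rose at 1.71 (SE 0.08, adjusted p = 1.2e-05) and 1.61 (SE 0.09, adjusted p = 1.9e-05).

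**Figure D4:**
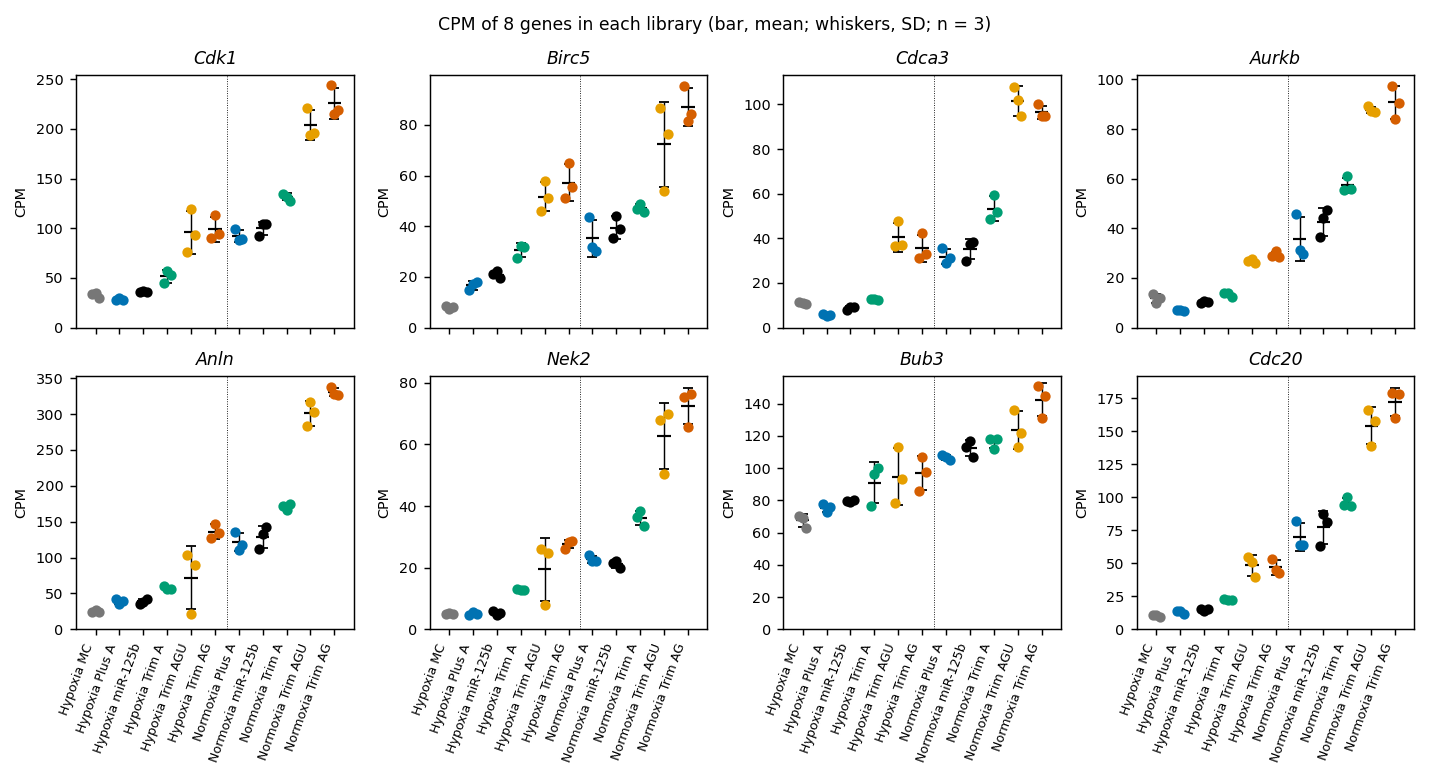
CPM of 8 of the genes in each library (points), with the mean and SD of each group of 3. Birc5 climbs from MC to Trim AG in hypoxia, Cdca3 and Aurkb are lowest with Hypoxia Plus A, Bub3 changes least, and Anln and Nek2 have 1 low Trim AGU library.

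The next question was whether the isomiRs differed from miR-125b in normoxia. Plus A had 0 calls among the 49 by edgeR, where 0% of all genes were called in either direction, and DESeq2 also called 0 of them. An unadjusted p below 0.05 was found for 0 of the 49 and for 404 of all 14781 genes tested. The median was -0.15, and all 49 genes overlapped between the groups, where 7.98% of all genes did not. Without replicate 1 of both groups the median was -0.37, 48 of 49 values were below 0, 45 of 49 had an unadjusted p and 36 an adjusted p below 0.05, and 1 gene, Nusap1, was called, at -0.78 (SE 0.07, adjusted p = 0.0011). Because the libraries left out were picked by these same genes, this fit is no separate test of a difference. The matching share of all genes is not given here. Nusap1 stood at 38.9, 24.1 and 22.6 CPM in the 3 Plus A libraries and 26.1, 42.1 and 39.3 in miR-125b. Trim A raised 3 and lowered 0, where 0.367% of all genes were called higher. They were Nek2 at 0.78 (SE 0.08, adjusted p = 0.0041), Cep55 at 0.73 (SE 0.07, adjusted p = 0.0041) and Cdca3 at 0.61 (SE 0.10, adjusted p = 0.024). The call of Cdca3 was lost without any of the 3 Trim A libraries or miR-125b replicate 1 or 2, at 0.51 to 0.67, and 5 genes were called without miR-125b replicate 3. The median was 0.41, or 0.30 without miR-125b replicate 1, and for 47 genes every Trim A library was above every miR-125b library, where that held for 12.6% of all genes.

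Trim AG raised 48 of the 49 in normoxia and lowered 0, where 7.58% of all genes were called higher, with a median of 1.13. Nek2 led, from 21.5, 22.1 and 19.8 CPM to 75.4, 65.8 and 76.5 (log2 fold change 1.73, SE 0.08, adjusted p = 3.4e-06). Trim AGU also raised 48 and lowered 0, where 6.22% were called higher, with a median of 1.06. Without miR-125b replicate 1 the counts were 48 for Trim AG and 47 for Trim AGU, with medians of 1.05 and 0.95. Cep55 led with Trim AGU, from 22.6, 25.8 and 22.2 CPM to 76.4, 86.5 and 70.4 (log2 fold change 1.72, SE 0.10, adjusted p = 0.0001). Bub3 alone had no call in either, at 0.30 (SE 0.07, adjusted p = 0.0066) and 0.13 (SE 0.09, adjusted p = 0.32). With Trim AGU the call of Cdc25c was lost at 0.56 without miR-125b replicate 1 or 2.

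Normoxia MC had no counts of its own libraries in the tables used here, and only the authors' mean of that group and of Normoxia Plus A, as a signal without replicates, could be set side by side. The mean of Plus A was below that of MC for 46 of the 49, with a median ratio of 0.727 and a range of 0.390 for Cep55 to 1.12 for Bub3. For 18 genes the ratio was at or below the inverse of 1.5, and for 0 at or above 1.5. The matching shares of all genes were not computed, so these counts do not set the 49 apart from other genes. These ratios have no replicate check, and 1 of the Plus A libraries behind the mean is the replicate 1 described above.

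Hypoxia against normoxia was compared within a mimic, with the difference of medium noted above. All 49 genes had a log2 fold change below 0 with each of miR-125b and its 4 isomiRs, and MC could not be compared. With miR-125b 48 fell, where 11.5% of all genes were called lower, with a median of -1.90. With Plus A 49 fell, where 12.8% were called lower, with a median of -1.97. With Trim A 48 fell, where 14.5% were called lower, with a median of -1.64. With Trim AG 48 fell, where 17.8% were called lower, with a median of -1.43. With Trim AGU 47 fell, where 13.4% were called lower, with a median of -1.56. None of the 49 rose, and without the 2 replicate 1 libraries in doubt the medians were -2.01 for miR-125b and -1.83 for Plus A.

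The fold changes of single genes covered a wide range. Cdc20 had the largest fall with miR-125b, from 63.4, 87 and 81.1 CPM to 15.1, 14.2 and 15.1 (log2 fold change -2.46, SE 0.11, adjusted p = 3.9e-07). Ccna2, a cyclin of S phase and mitosis, had it with Plus A, from 84.2, 64.8 and 64.3 to 12, 10.9 and 11.7, or -2.73 (SE 0.11, adjusted p = 2.1e-07). Bub1b had it with Trim A, from 84.2, 82 and 79.4 to 17.4, 17.1 and 16, or -2.36 (SE 0.08, adjusted p = 3.1e-07). In all 3 of these the libraries did not overlap. Kif14 had it with Trim AGU, from 44.8, 46.8 and 49.9 to 13.3, 5.33 and 11.3, or -2.22 (SE 0.28, adjusted p = 0.0017), with replicate 2 the lowest. Birc5 was among the genes with the smallest falls, at -1.0 (SE 0.09, adjusted p = 1.7e-05) with miR-125b, -0.70 (SE 0.09, adjusted p = 0.00033) with Trim A and -0.60 (SE 0.11, adjusted p = 0.0018) with Trim AG, and it had -0.44 (SE 0.22, adjusted p = 0.16) with Trim AGU. Its call with Trim AG was lost without Hypoxia Trim AG replicate 1 or 3 or Normoxia Trim AG replicate 1, at -0.56 to -0.51. Bub3 was called only with Plus A, at -0.62 (SE 0.05, adjusted p = 1.4e-05). With Trim AGU the calls of Pttg1, Cdca8, Nek2, Anln and Cdk1 were lost when single libraries were left out, for Cdk1 without Hypoxia Trim AGU replicate 3 and for Anln without Normoxia Trim AGU replicate 2. Pttg1 lost its call without any library but Hypoxia Trim AGU replicate 2, Cdca8 without Hypoxia replicate 3 or Normoxia replicate 1 or 3, and Nek2 without Normoxia replicate 1 or 3. With Trim AG, Cdca8 lost its call without Hypoxia replicate 3 or Normoxia replicate 1.

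Whether the effect of an isomiR against miR-125b depended on oxygen was tested as an interaction, the log2 fold change in hypoxia minus that in normoxia. For Trim AG 8 of the 49 were called higher and 0 lower, where 4.29% of all genes were called higher, and the median was 0.37 beside -0.02 over all genes tested. They were Hmmr at 0.76 (SE 0.18, adjusted p = 0.0095), Nek2 at 0.66 (SE 0.14, adjusted p = 0.0051), Ube2c at 0.64 (SE 0.16, adjusted p = 0.011), Cep55 at 0.64 (SE 0.15, adjusted p = 0.0087), Cenpf at 0.64 (SE 0.17, adjusted p = 0.016), Ccnb1 at 0.61 (SE 0.18, adjusted p = 0.028), Prc1 at 0.61 (SE 0.17, adjusted p = 0.02) and Cdca3 at 0.59 (SE 0.18, adjusted p = 0.03). Hmmr, for example, rose with Trim AG by 1.99 in hypoxia and 1.22 in normoxia on the log2 scale, and Nek2 by 2.40 and 1.73. Hmmr kept its call in each fit that left out 1 library, and Nek2 lost it without Hypoxia miR-125b replicate 2 (0.56). The count was 14 without Normoxia miR-125b replicate 1, alone or together with Normoxia Plus A replicate 1, which is not in this comparison. It was 2 without Hypoxia Trim AG replicate 2 or Normoxia miR-125b replicate 2, and 5 without Normoxia Trim AG replicate 2 or Normoxia miR-125b replicate 3. With library sizes in place of TMM scaling it was 3. The shares of all genes called in these other fits are not given here.

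For the other isomiRs edgeR made 0 such calls. With Plus A, where 0.0193% of all genes were called in either direction, DESeq2 called 1 of the 49, Spc24, lower. With Plus A 7 of the 49 had an unadjusted p below 0.05, as did 2509 of all 15569 genes tested. The median there was -0.16, and 0.07 without the 2 libraries in doubt. The counts of Trim A and Trim AGU stayed 0 without Normoxia miR-125b replicate 1, with medians of 0.26 and 0.45. With Trim A, where 0.605% were called, 10 had an unadjusted p below 0.05, as did 3481 of all 15534 genes tested. The median with Trim A was 0.17, and DESeq2 called 0. With Trim AGU, where 0.966% were called, 19 had an unadjusted p below 0.05, as did 3428 of all 15525 genes tested. The shares of the 49 at this unadjusted p were near those of all genes with Plus A and Trim A and larger with Trim AGU. The median with Trim AGU was 0.38, and DESeq2 called 5, all higher. Without Hypoxia Trim AGU replicate 1, 2 or 3, edgeR called 8, 2 and 1, and the shares of all genes in these fits are not given here.

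**Figure D5:**
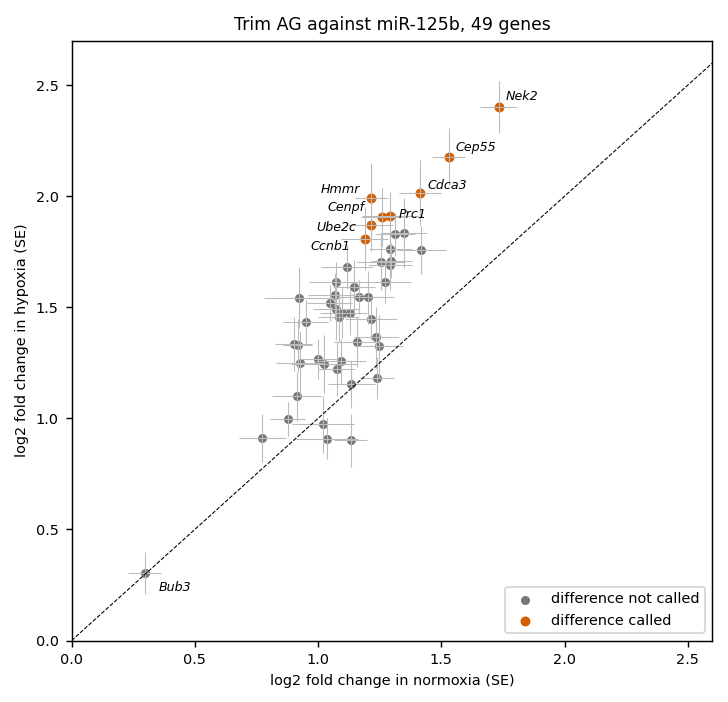
Log2 fold change of Trim AG against miR-125b for each of the 49 genes in normoxia (horizontal) and hypoxia (vertical), with standard errors and the line of equal change. The 8 genes whose difference was called lie above the line, Nek2 is highest in both, and Bub3 lies on it near 0.30.

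Other cell cycle genes gave the setting, and the shares of all genes called higher are those given above for the same comparisons. Of 50 further mitosis genes, 42 rose and 0 fell with Trim AG against Hypoxia miR-125b, with Sgol2, a protector of centromeric cohesion, highest at 2.20 (SE 0.22, adjusted p = 0.00018). Of 49 tested with Trim AGU, 35 rose and 0 fell, and of 50 with Trim A 4 rose and 0 fell. Against Hypoxia MC, Cit, the citron kinase of cytokinesis, fell with each of the 5 mimics, at -1.66 to -0.94. Of 15 subunits and activators of the anaphase-promoting complex, 2 rose and 1 fell with Trim AG against Hypoxia miR-125b. Of all 15305 genes tested, 1202 were called higher and 1757 lower, so these few calls are near the shares of all genes. Anapc15 at 0.81 (SE 0.11, adjusted p = 0.00077) and Cdc16 at -0.88 (SE 0.07, adjusted p = 7e-05) had the largest changes each way, with a median over the list of 0.12. Cdc16 fell with Trim AG in normoxia too, at -0.96 (SE 0.05, adjusted p = 6.3e-06).

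Of 30 genes of DNA replication, 24 rose and 0 fell with Trim AG against Hypoxia miR-125b, with a median of 0.84, the largest rise being that of Gins3 at 1.68 (SE 0.24, adjusted p = 0.0011). With Trim AGU 9 rose and 0 fell, with a median of 0.72. In normoxia 26 and 27 rose with Trim AG and Trim AGU and 0 fell. With Plus A against Hypoxia MC, 0 rose and 11 fell, where 10.5% of all genes were called higher and 14.4% lower. Fen1 led at -1.21 (SE 0.11, adjusted p = 6.5e-06), and the 49 mitosis genes had 6 and 3. With Trim A against Hypoxia MC, 6 rose and 1 fell, where 12.4% of all genes were called higher. Medians there were 0.15 for the replication genes and 0.89 for the 49. These counts describe the lists, and the difference between lists was not tested.

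Promoters are shown because the genes moved together. Of the 49, 41 matched a RefSeq promoter of 300 bases (GRCr8), 250 before the transcript start to 50 after it. Late cell cycle promoters are known for a cell cycle homology region (CHR), TTTGAA or its variant TTCGAA, and for CCAAT boxes, bound by NF-Y. Searched on both strands, each motif counted on its own even where 2 of them shared bases, TTTGAA was in 27 of the 41 (65.9%) and in 18.3% of all 33469 promoters of that length, and TTCGAA in 4 (9.76%) and 1.69%. CCAAT was in 30 (73.2%) and in 37.5%, and 23 of the 41 (56.1%) held both a CHR and a CCAAT, against 7.95% of all. A CHR of either form was in 29 of the 41 (70.7%) and in 19.7% of all promoters. Of 41 promoters of the other mitosis genes 32 (78.0%) held a CHR of either form and 26 (63.4%) a CCAAT, and 56.1% held both. Each list has 1 promoter per gene, while the 33469 may hold several of 1 gene. Of 25 replication promoters 5 (20%) held a CHR and 17 (68.0%) a CCAAT, and of 12 anaphase-promoting complex promoters 1 (8.33%) and 6 (50%). Capitals mark the motifs on either strand in the promoters of Cdk1, the most abundant of the 49, of Birc5, with the largest rise against MC with miR-125b, Trim A and Trim AGU, and of Cdc20, with the largest fall in hypoxia with miR-125b.
Cdk1 (chr20:19265043-19265342, plus strand): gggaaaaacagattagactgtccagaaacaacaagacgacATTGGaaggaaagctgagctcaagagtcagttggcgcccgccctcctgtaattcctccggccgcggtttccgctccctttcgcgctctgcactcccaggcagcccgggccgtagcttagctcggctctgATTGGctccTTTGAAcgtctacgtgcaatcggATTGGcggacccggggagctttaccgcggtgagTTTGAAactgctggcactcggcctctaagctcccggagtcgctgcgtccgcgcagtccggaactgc
Birc5 (chr10:103571896-103572195, plus strand): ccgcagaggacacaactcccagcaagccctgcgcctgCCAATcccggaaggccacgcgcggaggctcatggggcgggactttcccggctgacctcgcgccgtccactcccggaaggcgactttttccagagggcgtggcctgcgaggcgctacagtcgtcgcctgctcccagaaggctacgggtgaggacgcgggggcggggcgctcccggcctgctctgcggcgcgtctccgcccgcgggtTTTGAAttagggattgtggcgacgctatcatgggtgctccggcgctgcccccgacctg
Cdc20 (chr5:137255750-137256049, minus strand): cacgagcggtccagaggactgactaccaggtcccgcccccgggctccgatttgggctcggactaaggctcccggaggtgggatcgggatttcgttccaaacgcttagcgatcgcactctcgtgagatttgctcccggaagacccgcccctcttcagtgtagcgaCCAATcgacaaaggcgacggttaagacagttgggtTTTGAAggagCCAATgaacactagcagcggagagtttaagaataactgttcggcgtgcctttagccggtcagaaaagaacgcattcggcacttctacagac
A match describes the letters in the window and is not a shown binding site. The promoters of Aurka, Bub1, Kif18a, Kif2c and Melk held none of the 3 motifs. All 5 genes rose with Trim AG against miR-125b in hypoxia, but so did 48 of the 49, so their rise says nothing about the motifs. The part of the motifs in these results was not tested.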

How the data were processed

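RNA was sequenced from poly-A libraries that do not mark strand, so overlapping or antisense genes cannot be told apart. The authors deposited 12 tables of pairwise comparisons, of which 11 hold whole-number read counts per gene. HISAT2 and StringTie are named in the submitters' processing notes, and versions, genome build and annotation are not given in the sources used here, so the coordinates of the deposited tables are not printed. The deposited FPKM values were made by the authors from counts and gene lengths, and the per-group signal of the remaining table is the authors' mean, which was all that was used of Normoxia MC. Another 66 per-sample columns were not used, nor were the authors' columns of fold changes and p-values, which come from DESeq2.

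Libraries held 28361216 to 42672584 counts (median 29923694). CPM was computed from these totals. Groups were compared with edgeR 4.0.16 in R 4.3.3, by the quasi-likelihood test on raw counts of the groups compared, with TMM scaling, the filterByExpr filter (14720 to 15603 genes kept) and Benjamini-Hochberg adjustment over all genes kept. All 49 genes passed the filter in each of the 22 comparisons. A call needed an adjusted p below 0.05 and a 1.5-fold difference, and printed fold changes are log2 values with their standard errors. In 4 of the comparisons the coefficient was the interaction of mimic and oxygen. Nothing says that the 3 libraries of a group came from separate cultures, so p-values measure only the spread between these libraries, which may be technical.

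Alternatives were DESeq2 1.42.0, unscaled library sizes, no filter on low counts, a single fit of all libraries, a block for the replicate number, omission of each library, and omission of both normoxic libraries in doubt. The test was tested on simulated data in which 200 genes were changed 2-fold. Among 15305 genes in Trim AG against miR-125b in hypoxia, 80.9% of the 200 were recovered and 6.02% of calls were false. Among 15051 in Trim AGU against miR-125b these were 28.7% and 8.3%, and among 15603 in the oxygen dependence of Trim AG 70.4% and 4.6%. In the data 6336, 625 and 3538 genes had an adjusted p below 0.05 in these 3 edgeR comparisons, so the simulated setting differs from the data. Levels in every library are given for 1 to 3 genes of each role, for genes called against the direction of the others and for the largest change of a comparison. Other lists are given as counts with their largest changes, and Nek2, Nusap1, Racgap1, Kif14, Myog and others in doubtful libraries were named after their values were seen. The genes and the other lists were chosen with earlier results of these data known. Promoters and the miRNA are from RefSeq (GRCr8), and 8 of the 49 genes had no entry there. Controls are shared between the comparisons against Hypoxia MC, and likewise between those against miR-125b of 1 oxygen condition.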

Additional observations from a re-analysis of the deposited data

Results flagged for a closer look

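For 8 genes the change from miR-125b to Trim AG differed between hypoxia and normoxia in a test of the difference itself, edgeR's interaction with Benjamini-Hochberg adjustment over all genes. The log2 change was larger in hypoxia by 0.76 for Hmmr, 0.66 for Nek2, 0.64 for each of Ube2c, Cep55 and Cenpf, 0.61 for each of Ccnb1 and Prc1, and 0.59 for Cdca3. Medium differed along with oxygen between these groups, and the 2 cannot be told apart. The count of 8 ranged from 2 to 14 with 1 library left out, and it was 3 with library sizes in place of TMM. Normoxia miR-125b replicate 1, a library in doubt, is part of this test. Each group has 3 libraries, too few for a test of single libraries as outliers.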

How the results depend on the processing

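The counts of called genes against Hypoxia MC, with Trim AG against miR-125b, with Trim AGU against Normoxia miR-125b and of hypoxia against normoxia, and that of 0 in the oxygen dependence of Trim A, stayed within 1.5 times of the reported count under every alternative run. The other counts did not. With 1 library left out they ranged from 2 to 7 for Hypoxia Plus A against Hypoxia miR-125b, from 0 to 23 for Hypoxia Trim A, from 12 to 48 for Hypoxia Trim AGU and from 2 to 5 for Normoxia Trim A, and in the oxygen dependence from 2 to 14 for Trim AG and from 0 to 8 for Trim AGU. Library sizes in place of TMM gave 3 for Hypoxia Plus A against Hypoxia miR-125b and 3 for the oxygen dependence of Trim AG. DESeq2 gave 1 for the oxygen dependence of Plus A and 5 for that of Trim AGU, which was 6 with all libraries in 1 fit. Without both normoxic libraries in doubt the count was 1 for Normoxia Plus A against miR-125b and 14 for the oxygen dependence of Trim AG. The shares of all genes called under these alternatives are not given here, and the cause of these changes was not tested. Leaving out libraries or adding a block also leaves fewer degrees of freedom.

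Libraries with the same replicate number did not deviate together: in no comparison was every such correlation over 0.1, so the numbers were not taken as pairs. With the replicate number as a block, the count was 0 for Hypoxia Trim A against Hypoxia miR-125b and 23 for Hypoxia Trim AGU, and elsewhere it stayed within 1.5 times.

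Of all values of single genes under the alternatives, 8994 kept their direction and side of the threshold, 362 lost their call, 41 gained one and 51 without a call changed sign. Library sizes in place of TMM moved the median of all genes by -0.14 to 0.11 on the log2 scale, and by over 0.1 in 3 of 22 comparisons. With 3 libraries per group the precision is limited by their spread, which for a single gene was widest in Hypoxia Trim AGU.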
